A study of Mus musculus with 18 samples.

Results

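The 8 genes described here, Cdkn1a, Mdm2, Ccng1, Trp53inp1, Bbc3, Perp, Gadd45a and Btg2, are direct targets of the transcription factor p53, a tumour suppressor whose activation has been linked to motoneuron death in Smn deficiency. They were chosen by symbol, as every probe set whose annotation names that symbol alone: 15 of the 45101 probe sets of the array, and 8 of the 18192 genes measured. Where a gene had several probe sets, the one with the highest mean over all 18 arrays leads, and the others are given after it. In the unstressed cell p53 is bound and ubiquitinated by Mdm2 and is short-lived. DNA damage, ribosomal stress or the loss of a growth signal stabilises it, and it then binds paired decamers in its target genes and raises their transcription. The targets halt the cell cycle, repair DNA, trigger mitochondrial apoptosis or, as Mdm2 does, shut p53 off again. In postmitotic neurons the apoptotic branch is the one best known.

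The arrays measured RNA of cultured mouse motoneurons, the spinal neurons lost in spinal muscular atrophy, a disease of too little SMN protein. Motoneurons of E12.5 embryos, enriched by panning on the p75 receptor, received a lentivirus with an shRNA against Smn (Smn knockdown), the same kind of virus without it (empty vector) or no virus (wild-type), and grew for 7 days in microfluidic chambers. BDNF at 20 ng/ml in the axonal compartment drew the axons through the channels, and CNTF at 5 ng/ml was in both compartments. RNA of the axonal and of the somatodendritic compartment was amplified in 2 rounds and hybridised to 1 array per sample, which gave 6 groups of 3 arrays. No group carried a non-targeting shRNA, so knockdown and the presence of an shRNA cannot be told apart. The sample titles name all Smn knockdown arrays in a style of their own (Nr) and all control arrays in another (Gr). What these styles mark is not in the labels, and it cannot be told apart from knockdown. Whether the 3 samples of each group were grown as separate cultures is not in the labels, so p-values measure the spread between these samples, which may be technical.

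Values are log2 expression. A gene was called above background in a group where each of its 3 arrays exceeded that array's background level, the 95th percentile of 150 probe sets for receptors, keratin-associated proteins and defensins not expected in these cells. Axonal background levels were 7.01 to 7.22 in Smn knockdown, 6.39 to 7.15 in empty vector and 6.41 to 6.77 in wild-type. On somatodendritic arrays they were 6.26 to 6.39, 6.40 to 6.46 and 6.36 to 6.53 in the same order of groups. Replicates correlated at 0.9937 or more in each somatodendritic group. On axonal arrays the lowest replicate correlation was 0.7444 in Smn knockdown, 0.7818 in empty vector and 0.8403 in wild-type, and the axonal arrays correlated with the mean of the somatodendritic controls at 0.539, 0.712 and 0.658 in Smn knockdown, 0.847, 0.705 and 0.884 in empty vector, and 0.814, 0.891 and 0.887 in wild-type. Smn knockdown replicates 1 and 3 were the lowest of all, and replicate 2 the lowest of empty vector. Axonal results are therefore also given without Smn knockdown replicate 1 and empty vector replicate 2, and for the brighter members without Smn knockdown replicates 1 and 3, which leaves 1 knockdown array, assumed to vary like the other groups. The probe set for Smn1, the gene targeted, was below background on all 9 somatodendritic arrays and did not differ between Smn knockdown and empty vector there (difference -0.14, adjusted p = 0.412), so it could not check the labels. Of the 12 motoneuron markers, Prph, Ret, Ngfr and Foxp1 were above background in somatodendritic Smn knockdown and empty vector. Mnx1, Chat, Slc5a7, Slc18a3, Lhx3, Lhx4 and Isl2 were below it on every array of these groups. Trp53, the gene for p53 itself, was not analysed here.

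In the somatodendritic compartment the targets of p53 did not move as a block. Cdkn1a rose clearly against both controls, Mdm2 rose modestly against both, Btg2 fell against empty vector, and Ccng1 fell against wild-type. Gadd45a rose against empty vector at a level below background. Trp53inp1, Bbc3 and Perp passed no test. In the test against empty vector 3 members rose and 1 fell, 50.0% of the 8, beside 28.0% of all 18192 genes that passed it (2267 higher and 2821 lower). Against wild-type 2 rose and 1 fell, 37.5% of the 8 beside 36.0% of all genes (2833 higher, 3717 lower), a share near that of any gene. None of the 8 differed between empty vector and wild-type at an adjusted p under 0.05, where 2.0% of all genes did. There, 2 members (Mdm2 and Perp) had an unadjusted p under 0.05, as had 17.2% of all genes. The Smn knockdown arrays did not overlap the empty vector arrays for 5 members (43.3% of all genes) or the wild-type arrays for 4 (48.7%), and empty vector did not overlap wild-type for 2 (18.9%). The comparisons share arrays, since each knockdown test uses the same 3 Smn knockdown arrays. The median difference of the 8 from empty vector was 0.13, and that of all genes was -0.02.

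**Figure D1:**
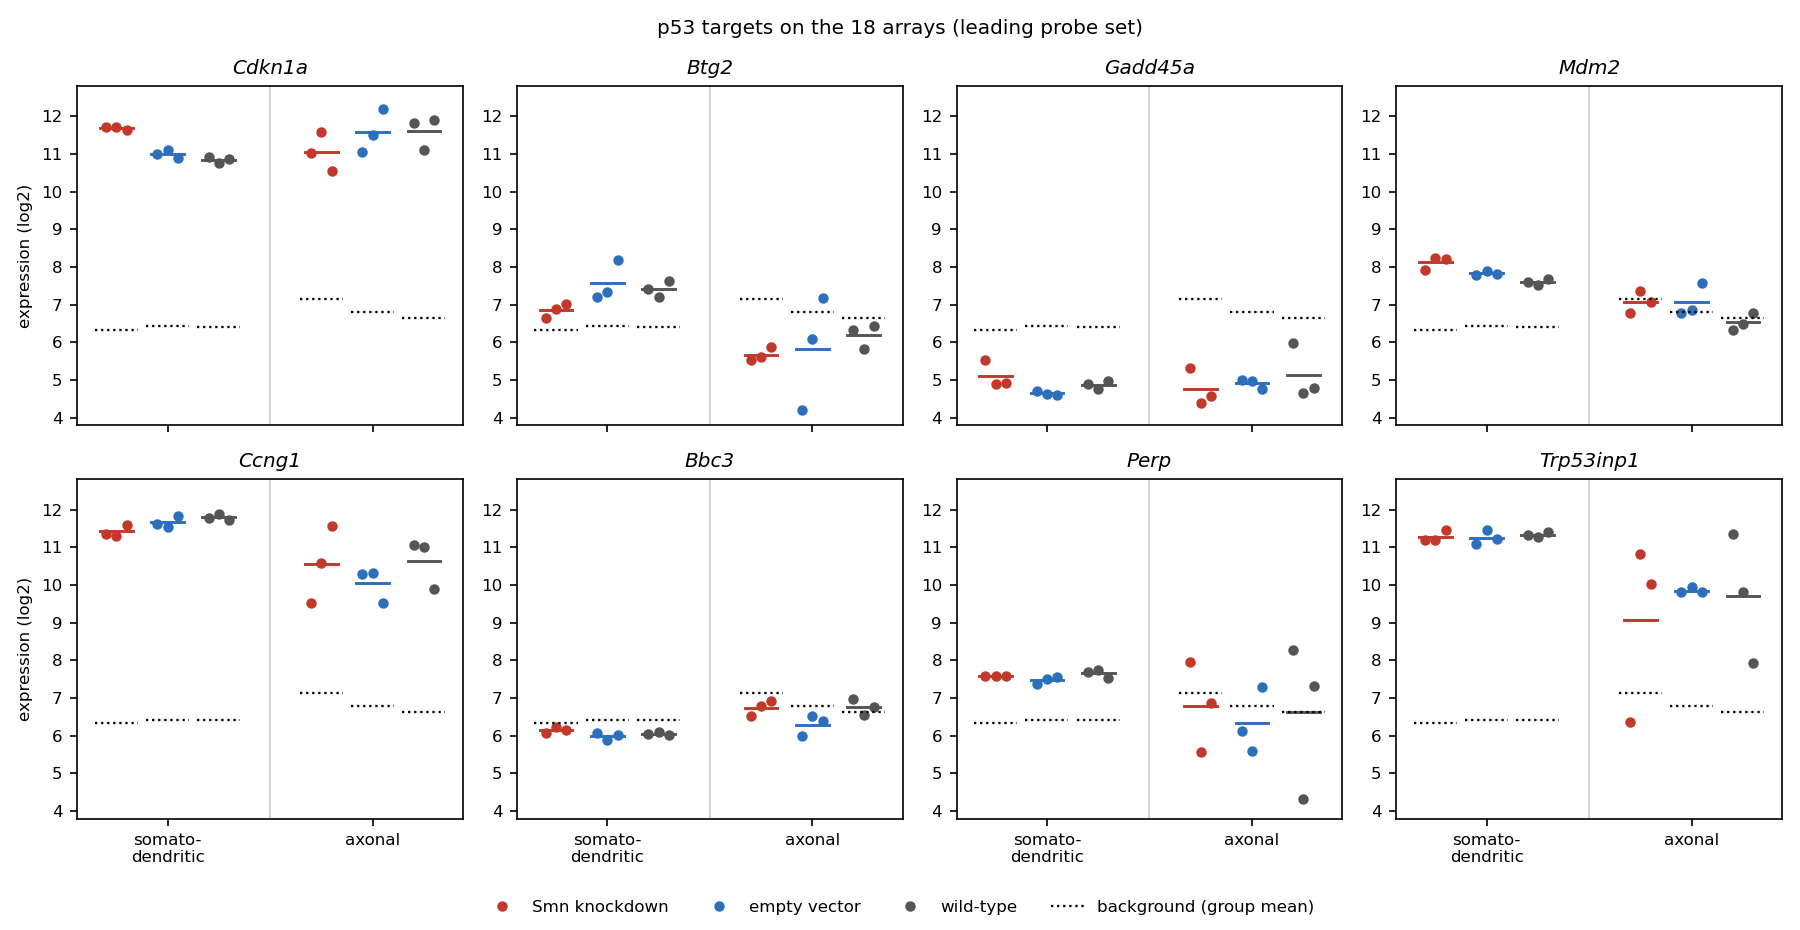
Level of each p53 target (log2, leading probe set) on each of the 18 arrays, by group within each compartment; points are arrays, bars are group means of 3 arrays, dotted lines the mean background level of the group. Somatodendritic Cdkn1a lay at 11.62 to 11.72 in Smn knockdown, above all empty vector (10.89 to 11.11) and wild-type arrays (10.76 to 10.91), while axonal points spread widely; the compartments were normalized apart, so their heights are not on one scale.

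Cdkn1a encodes p21, the inhibitor of cyclin-dependent kinases through which p53 arrests the cell cycle. Its somatodendritic level was 11.71, 11.72 and 11.62 in Smn knockdown, 10.99, 11.11 and 10.89 in empty vector, and 10.91, 10.76 and 10.86 in wild-type. The 3 knockdown arrays lay above all 6 control arrays, and the control groups overlapped. Cdkn1a exceeded empty vector by 0.68 (SE 0.09, 1.60-fold, adjusted p = 1.08e-04 by limma) and wild-type by 0.84 (SE 0.09, 1.79-fold, adjusted p = 1.69e-05). In order of level, Smn knockdown was highest, and empty vector and wild-type did not differ beyond their spread (0.16, adjusted p = 0.400). Among the 18192 genes, 666 rose at least as far against empty vector. The calls held without each array in turn; they were lost in 1 fit to all 18 arrays (adjusted p = 0.925 and 0.374), where the spread of the axonal arrays is pooled in. These are bulk samples, in which a change in the number of cells of a type and a change in RNA per cell cannot be told apart.

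Mdm2, the ubiquitin ligase that marks p53 for degradation and is itself raised by it, was at 7.92, 8.24 and 8.22 in somatodendritic Smn knockdown, 7.79, 7.89 and 7.81 in empty vector, and 7.59, 7.53 and 7.68 in wild-type. The 3 groups did not overlap, in the order Smn knockdown, empty vector, wild-type, but the lowest knockdown array lay close to the highest empty vector array. Mdm2 rose by 0.53 against wild-type (SE 0.10, 1.44-fold, adjusted p = 0.0013) and by 0.30 against empty vector (SE 0.10, 1.23-fold, adjusted p = 0.0425). Empty vector and wild-type differed by 0.23, which did not pass (adjusted p = 0.265). The call against empty vector was lost in 10 of 15 other settings: the adjusted p was 0.166 and 0.142 without Smn knockdown replicate 5 or 6, 0.115, 0.0517 and 0.107 without empty vector replicate 1, 2 or 3, and 0.0546 without wild-type replicate 1. The mean of its 3 probe sets gave 0.20 (adjusted p = 0.0798).

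Ccng1 encodes cyclin G1, a partner of protein phosphatase 2A that acts on Mdm2 and so feeds back on p53. Its level was 11.35, 11.31 and 11.59 in somatodendritic Smn knockdown, 11.62, 11.54 and 11.83 in empty vector, and 11.77, 11.89 and 11.72 in wild-type. The knockdown arrays lay below all wild-type arrays and overlapped empty vector. Ccng1 fell by 0.37 against wild-type (SE 0.11, 1.29-fold lower, adjusted p = 0.0149); the difference of -0.24 from empty vector did not pass (adjusted p = 0.115). The call was lost without Smn knockdown replicate 4 (adjusted p = 0.0587) or 5 (0.0698) or wild-type replicate 2 (0.0545), and the mean of its 3 probe sets differed by -0.16 (adjusted p = 0.275).

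Trp53inp1, a stress-induced nuclear protein that promotes p53 activity and autophagy, was level across the groups: 11.18, 11.20 and 11.45 in Smn knockdown, 11.09, 11.47 and 11.21 in empty vector, and 11.32, 11.28 and 11.41 in wild-type. All 3 groups overlapped. Smn knockdown differed from empty vector by 0.02, with a 95% interval of -0.22 to 0.26 that leaves out changes of the size seen for Cdkn1a.

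Bbc3 encodes PUMA, the protein through which p53 most directly engages the mitochondrial death pathway. Its probe set stayed below background on every somatodendritic array, at 6.06, 6.23 and 6.14 in Smn knockdown, 6.08, 5.89 and 6.02 in empty vector, and 6.03, 6.09 and 6.02 in wild-type. The groups overlapped, and the difference from empty vector was 0.14 (95% interval -0.04 to 0.33, adjusted p = 0.249). That verdict depends on the cut: at the 90th percentile of the same background probe sets, Bbc3 exceeded background on all 3 arrays of each somatodendritic group. A probe set this near background gives only a bound on its gene, so a small increase of PUMA mRNA from a low level could be missed here.

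Perp, a membrane protein of the PMP22 family that takes part in cell adhesion and in p53-dependent apoptosis, was at 7.58, 7.59 and 7.59 in Smn knockdown, 7.37, 7.50 and 7.55 in empty vector, and 7.70, 7.73 and 7.54 in wild-type. The knockdown arrays lay just above the empty vector arrays and within the range of wild-type. That gap, 0.11 on average, did not pass the test (adjusted p = 0.376).

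Gadd45a, a small stress protein that binds PCNA and activates stress kinases, was below background on all 9 arrays: 5.52, 4.90 and 4.92 in Smn knockdown, 4.70, 4.63 and 4.61 in empty vector, and 4.88, 4.75 and 4.97 in wild-type. Smn knockdown replicate 4 was the highest array and the other knockdown arrays lay within the wild-type range. The difference from empty vector was 0.47 (SE 0.14, adjusted p = 0.0305); no fold is given, since both groups were below background. Without Smn knockdown replicate 4 the difference was 0.26 (adjusted p = 0.0858), and without empty vector replicate 1, 2 or 3 the adjusted p was 0.0562, 0.069 and 0.0822.

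Btg2 belongs to the BTG/TOB family, which slows proliferation and recruits the CCR4-NOT deadenylase, and it is also an immediate-early gene. It was the one member that fell against empty vector, with 6.63, 6.89 and 7.01 in Smn knockdown, 7.21, 7.34 and 8.18 in empty vector, and 7.40, 7.20 and 7.63 in wild-type. The knockdown arrays lay below all 6 control arrays, and empty vector replicate 3 stood highest. Btg2 differed by -0.73 from empty vector (SE 0.21, 1.66-fold lower, adjusted p = 0.0222) and by -0.56 from wild-type (SE 0.21, adjusted p = 0.0584). Without empty vector replicate 3 the difference from empty vector was -0.43 (adjusted p = 0.0523) while that from wild-type passed (adjusted p = 0.00517), as it also did without empty vector replicate 1 (0.043). Without Smn knockdown replicate 4 or 5 the call against empty vector was lost as well (adjusted p = 0.0917 and 0.0577).

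**Figure D2:**
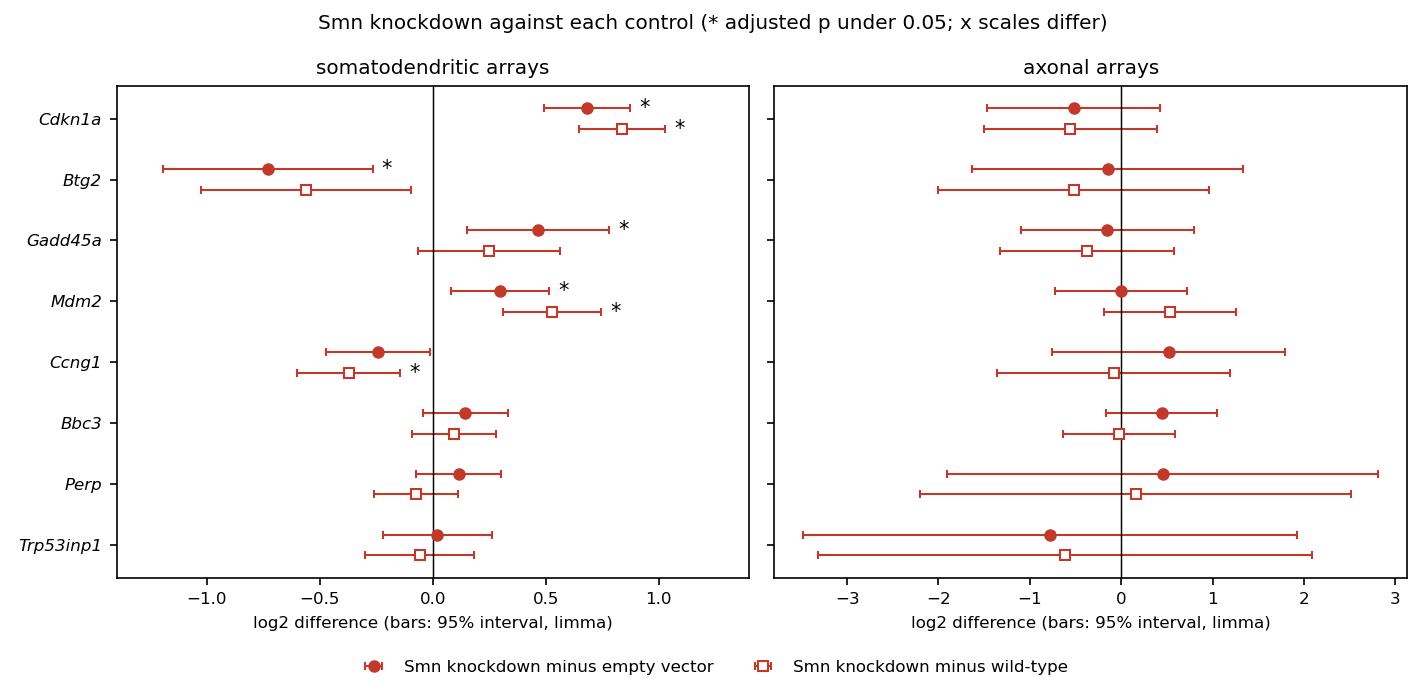
Difference of Smn knockdown from empty vector (filled circles) and from wild-type (open squares) for each p53 target, log2, with 95% intervals from limma; asterisks mark an adjusted p under 0.05, and the x scales of the compartments differ. In the somatodendritic panel Cdkn1a lies to the right (0.68 and 0.84) and Btg2 to the left (-0.73 and -0.56); every axonal interval crosses 0.

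The stretches below, of the promoters of Cdkn1a, Mdm2, Ccng1 and Gadd45a, are shown because each held the decamer of the p53 response element. It was searched as the pattern RRRCWWGYYY, in which R is A or G, W is A or T and Y is C or T. That motif reads alike on both strands. Such decamers are bound by p53 in pairs, and the stretches of Mdm2, Ccng1 and Gadd45a held 1 each. In Cdkn1a the marked copies lie from 73 to 64 and from 51 to 42 bases before the start, so they do not adjoin. The bases right after the later copy, tgacatgttc, miss the pattern at their opening base alone. They are in lower case because only exact matches were marked. Which decamers form a pair was not tested. All stretches lie upstream of the transcription start, in RefSeq sequence of build GRCm38.p6. They are printed 5′ to 3′ on the gene's strand with the decamer in capitals.
Cdkn1a, chr17:29090886-29090957, plus strand, from 93 to 22 bases before the start: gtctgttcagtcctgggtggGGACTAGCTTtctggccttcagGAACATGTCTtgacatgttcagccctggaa
Mdm2, chr10:117710915-117710964, minus strand, from 206 to 157 bases before the start: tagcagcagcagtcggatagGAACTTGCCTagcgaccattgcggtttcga
Ccng1, chr11:40755442-40755491, minus strand, from 205 to 156 bases before the start: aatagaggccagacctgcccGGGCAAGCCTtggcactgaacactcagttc
Gadd45a, chr6:67037418-67037467, minus strand, from 60 to 11 bases before the start: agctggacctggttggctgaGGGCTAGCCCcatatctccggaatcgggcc

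RefSeq windows of 300 bases, from 250 before to 50 after a transcription start, were matched for 6 of the 8 members, 9 windows in all, and 4 of these windows held the decamer. Over all 32851 windows, 8.36% held it at least once. Of the 2 Cdkn1a windows 1 held the decamer, in 2 copies, and 0.359% of all windows held at least 2. The other Cdkn1a window, the 3 windows of Bbc3 and the 1 of Btg2 held none, which says only that this pattern is not in those windows. Among the genes with a window that held the decamer, Cdkn1a and Mdm2 rose against both controls, Gadd45a rose against empty vector below background, and Ccng1 fell against wild-type. A match is a description of sequence and not a measured site of binding.

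Several members were read by more than one probe set, and the probe sets of a gene gave unequal answers. In a fit to all 34934 probe sets of single genes, the leading probe set of Cdkn1a passed against empty vector, as did those of Mdm2, Gadd45a and Btg2, and no other probe set of the 15 did; 24.4% of all probe sets passed. The other Cdkn1a probe set, 1421679_a_at, was below background on all somatodendritic arrays of these groups and differed by 0.17 (adjusted p = 0.440); the mean of both gave 0.43 (adjusted p = 0.00787). The Mdm2 probe set 1427718_a_at, also below background, differed by 0.32 (adjusted p = 0.0719), close to the 0.30 of the leading one, and passed against wild-type (0.43, adjusted p = 0.0139), where 32.7% of all probe sets passed. The remaining Mdm2 probe set, 1457929_at, differed by -0.02. For Ccng1 the leading probe set differed by -0.24, 1450017_at by -0.15 and 1450016_at by 0.12, all above background and none past the test. The other Btg2 probe set, 1416250_at, was below background and differed by -0.17 (adjusted p = 0.329); the mean of both gave -0.45 (adjusted p = 0.0281).

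**Figure D3:**
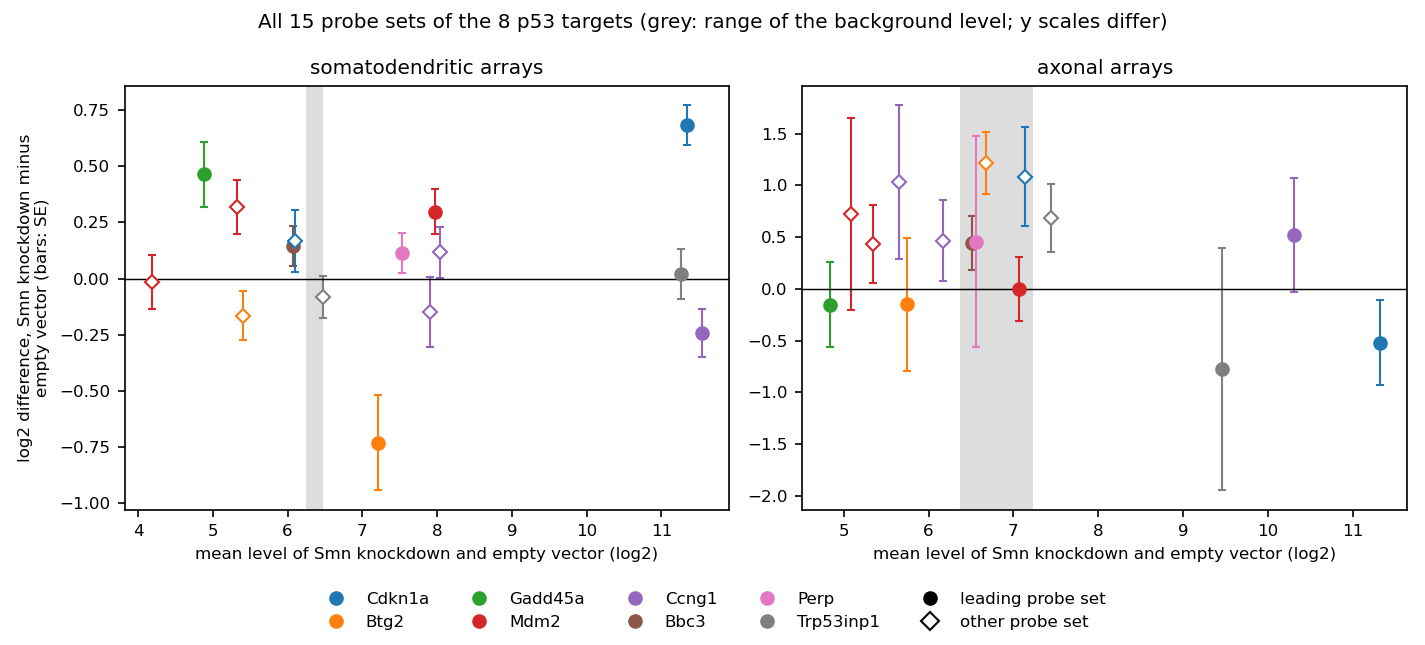
Difference of Smn knockdown from empty vector (log2, bars SE from limma) against the mean level of both groups (log2), for all 15 probe sets of the 8 genes; filled points lead, open diamonds are the other probe sets, and grey bands give the range of the background level. The bright somatodendritic Cdkn1a probe set is at 0.68 and its dim one at 0.17. On axonal arrays all 7 less bright probe sets lie above 0, of which Trp53inp1 1416927_at alone was above background in both groups. The leading ones of Cdkn1a, Btg2, Trp53inp1 and Gadd45a lie below 0 there, and that of Mdm2 lies at -0.004.

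In the axonal compartment no member passed a test at an adjusted p of 0.05. This was so in Smn knockdown against empty vector, where 0.176% of all genes passed, against wild-type, where 0.0989% did, and in empty vector against wild-type, where 0.0% did by limma. At an unadjusted p under 0.05 the shares of all genes were 18.2%, 20.9% and 3.31%. The median within-group SD over all genes was 0.491, 0.489 and 0.363 in axonal Smn knockdown, empty vector and wild-type, beside 0.093, 0.112 and 0.121 on somatodendritic arrays. On these arrays the Smn knockdown range met the empty vector range and the wild-type range for all 8 members, while 21.8% and 28.8% of all genes did not overlap. Empty vector and wild-type did not overlap for Bbc3, as for 8.83% of all genes.

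Cdkn1a stayed bright in axons, at 11.03, 11.59 and 10.55 in Smn knockdown, 11.04, 11.49 and 12.19 in empty vector, and 11.82, 11.11 and 11.90 in wild-type. The groups overlapped, and the knockdown mean was the lowest. It differed from empty vector by -0.52 (SE 0.41, adjusted p = 0.549), by -0.55 (adjusted p = 0.659) without Smn knockdown replicate 1 and empty vector replicate 2, and by 0.02 (adjusted p = 0.996) without Smn knockdown replicates 1 and 3. As a percentile among all genes of the array, Cdkn1a stood on average at 96.4 on axonal and 96.2 on somatodendritic Smn knockdown arrays, at 97.3 and 93.1 in empty vector, and at 97.5 and 92.1 in wild-type. Such positions depend on how well a probe set binds and are not transcript amounts.

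Ccng1, the feedback cyclin, was at 9.53, 10.59 and 11.56 in axonal Smn knockdown, 10.29, 10.32 and 9.52 in empty vector, and 11.05, 11.00 and 9.89 in wild-type. It was above background on all 9 arrays with no order between the groups (0.52 from empty vector, adjusted p = 0.668). Without Smn knockdown replicate 1 and empty vector replicate 2 the difference was 1.17 (adjusted p = 0.338), and without Smn knockdown replicates 1 and 3 it was 0.55 (adjusted p = 0.831). Trp53inp1 was at 6.37, 10.81 and 10.03 in Smn knockdown, 9.80, 9.95 and 9.80 in empty vector, and 11.34, 9.80 and 7.93 in wild-type. Smn knockdown replicate 1 read Trp53inp1 below background, while the other knockdown arrays exceeded the 3 empty vector ones. Trp53inp1 differed by -0.78 (SE 1.18, adjusted p = 0.778), with a 95% interval of -3.48 to 1.93; without Smn knockdown replicate 1 and empty vector replicate 2 the value was 0.62 (adjusted p = 0.799), and without Smn knockdown replicates 1 and 3 it was 0.96 (adjusted p = 0.848).

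The remaining members were near or below background in axons. Mdm2 was at 6.77, 7.35 and 7.06 in Smn knockdown, 6.77, 6.85 and 7.58 in empty vector, and 6.33, 6.48 and 6.77 in wild-type, and exceeded background on 2, 1 and 1 arrays of these groups. Perp ran over a wide range, with 7.95, 5.56 and 6.86 in Smn knockdown, 6.13, 5.59 and 7.28 in empty vector, and 8.26, 4.31 and 7.32 in wild-type. Its highest and its lowest array were both wild-type. Bbc3 was at 6.51, 6.78 and 6.91 in Smn knockdown, 5.98, 6.52 and 6.38 in empty vector, and 6.96, 6.56 and 6.76 in wild-type, below background on every knockdown and empty vector array. Btg2 read 5.53, 5.60 and 5.88 in Smn knockdown, 4.21, 6.08 and 7.17 in empty vector, and 6.33, 5.83 and 6.43 in wild-type. All 9 axonal arrays read Gadd45a below background, at 4.39 to 5.32, 4.76 to 5.00 and 4.64 to 5.97 in Smn knockdown, empty vector and wild-type. Without Smn knockdown replicate 1 and empty vector replicate 2, Smn knockdown differed from empty vector by 0.03 for Mdm2, -0.50 for Perp, 0.67 for Bbc3, 0.05 for Btg2 and -0.40 for Gadd45a, and none passed.

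In axons each of the 7 less bright probe sets read higher in Smn knockdown than in empty vector, and for Btg2, Cdkn1a and Trp53inp1 the leading one read lower. Of these 7, Trp53inp1 1416927_at alone was above background in both groups. How many of all probe sets, or of equally dim ones, read higher was not counted, so the direction cannot be called particular to these genes. The Btg2 probe set 1416250_at was higher in Smn knockdown than in empty vector by 1.21 (SE 0.30), the Cdkn1a probe set 1421679_a_at by 1.08 (SE 0.48), and the Trp53inp1 probe set 1416927_at by 0.68 (SE 0.33). None passed (adjusted p = 0.111, 0.299 and 0.335), where 0.149% of all probe sets did against empty vector and 0.0887% against wild-type, and their leading probe sets differed by -0.15, -0.52 and -0.78. The Mdm2 probe sets 1427718_a_at and 1457929_at differed by 0.72 (SE 0.93) and 0.43 (SE 0.37), beside -0.004 for the leading one, and those of Ccng1 by 0.47 and 1.03, beside 0.52. Btg2 1416250_at read 7.84, 7.10 and 6.90 in Smn knockdown, 6.15, 6.14 and 5.91 in empty vector, and 6.09, 5.94 and 5.76 in wild-type. The background level was also highest in axonal Smn knockdown (7.01 to 7.22); its part in these values was not tested.

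Whether the knockdown difference itself differed between the compartments was tested as an interaction on all 18 arrays. The compartments were normalized apart, and a difference in scale between them does not cancel in this test. It also pools the wider axonal spread with the somatodendritic one. For no member did it pass, while 6.76% of all genes did. For Cdkn1a the axonal difference from empty vector minus the somatodendritic one was -1.20 (SE 0.42, 95% interval -2.10 to -0.30, adjusted p = 0.105), and without axonal Smn knockdown replicate 2 it was -1.47 (adjusted p = 0.0305). The value for Cdkn1a depended on the probe set: the mean of both gave -0.14 (adjusted p = 0.838), and 1421679_a_at alone 0.91 (adjusted p = 0.339). For the other 7 it ran from -0.80 for Trp53inp1 to 0.76 for Ccng1. Of the 15 probe sets, 1416250_at of Btg2 alone passed (1.38, adjusted p = 0.019), where 5.77% of all probe sets did; it exceeded background on 1 of 3 axonal Smn knockdown arrays and on no axonal empty vector or somatodendritic array.

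Around the 8 members, other genes of the p53 pathway moved in both directions in the somatodendritic compartment. Of 32 measured genes of a list of 36 further p53 targets, 6 rose and 7 fell against empty vector, 40.6% of them beside 28.0% of all genes (2267 higher and 2821 lower), and the median was -0.04. Aen, a nuclease of p53-dependent apoptosis, rose by 0.82 (SE 0.09, 1.77-fold, adjusted p = 3.54e-05). Sesn1, a sestrin that restrains mTORC1 under stress, fell by 0.59 (SE 0.09, 1.50-fold lower), and Apaf1, the scaffold of the apoptosome, fell by 0.64 (SE 0.11, 1.56-fold lower). Thbs1, a secreted inhibitor of angiogenesis, fell by 1.14 below background. Against wild-type 7 of the 32 rose and 8 fell, 46.9% beside 36.0% of all genes.

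The regulators of p53 leaned to lower levels. Of 21 measured genes of 24, 10 fell and 1 rose against empty vector, 52.4% beside 28.0% of all genes. The median was -0.35, beside -0.02 over all genes. Against wild-type 13 fell and 2 rose, 71.4% beside 36.0% of all genes (2833 higher, 3717 lower). Cop1, a ubiquitin ligase for p53, fell by 1.34 (SE 0.09, 2.53-fold lower, adjusted p = 5.75e-07). Ppm1d, the phosphatase Wip1 that ends p53 signalling, fell by 0.70 (SE 0.08, 1.62-fold lower). The checkpoint kinase gene Chek1 fell by 0.83 (SE 0.11) and Hipk2, a kinase that phosphorylates p53, by 0.58 (SE 0.08). The gene that rose was Rpl11 (0.49, adjusted p = 0.00398), a ribosomal protein that binds Mdm2 under ribosomal stress; it was named after its value was seen. Genes that restrain p53 and genes that activate it were both among those that fell.

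Relatives of the members, from the Cip/Kip, BTG/TOB, GADD45 and PMP22 families, divided too: 2 of 15 measured rose against empty vector and 3 fell, 33.3% of them, near the 28.0% of all genes, with a median of 0.04. Emp3, a relative of Perp, rose by 0.50 below background and Pmp22, another, by 0.36 (SE 0.11, adjusted p = 0.0222). Against wild-type Pmp22 fell by 0.38 (adjusted p = 0.0141) and Emp3 differed by -0.21 (adjusted p = 0.154). In empty vector against wild-type Pmp22 fell by 0.74 (adjusted p = 0.00243) and Emp3 by 0.71 (adjusted p = 0.0035). Emp1 fell against empty vector by 0.82 (SE 0.18, adjusted p = 0.00423) and Gadd45g by 0.31, which against wild-type differed by -0.17 (adjusted p = 0.181). Gadd45g exceeded background on no knockdown array and on 1 empty vector array. Emp2 also fell (-0.59, adjusted p = 0.0329), named after its value was seen.

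Of 27 measured genes of 30 of mitochondrial apoptosis, 6 rose and 6 fell against empty vector, 44.4% beside 28.0% of all genes, with a median of -0.06. Bcl2, the founding survival protein of its family, fell by 0.92 (SE 0.08, 1.89-fold lower, adjusted p = 5.19e-06), and Bcl2l2, a related survival protein, rose by 0.80 (SE 0.08, 1.74-fold, adjusted p = 1.39e-05). Bid, which carries death receptor signals to mitochondria, fell by 1.03 (SE 0.11, 2.04-fold lower). Casp8, the initiator caspase of that route, rose by 0.70 against empty vector (SE 0.12) at a level above background on 2 of 3 knockdown arrays and on no empty vector array. Casp8 differed from wild-type by 0.15 (adjusted p = 0.353), and it was lower in empty vector than in wild-type by 0.55 (-0.55, adjusted p = 0.0367). Pro-survival and pro-death genes were among both those that rose and those that fell.

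**Figure D4:**
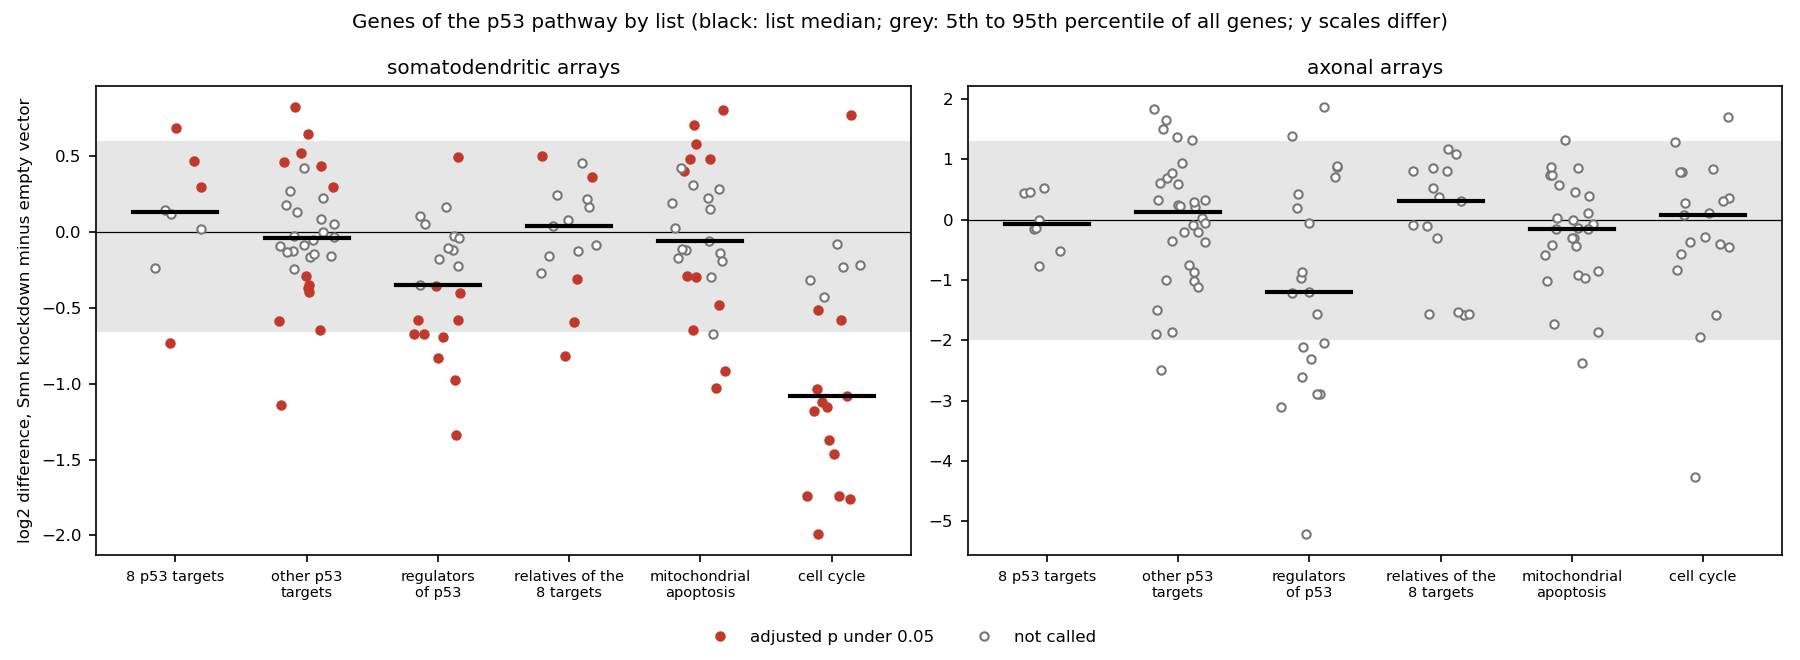
Difference of Smn knockdown from empty vector (log2) for each gene of 6 lists; filled points passed an adjusted p of 0.05, open points did not, black bars are list medians and grey bands run from the 5th to the 95th percentile of all genes (y scales differ). Somatodendritic medians are near 0 for the targets, relatives and apoptosis genes, -0.35 for regulators of p53 and -1.08 for cell cycle genes; no gene of these lists passed on axonal arrays.

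In axons no gene of these 4 lists passed in Smn knockdown against empty vector. Rrm2b, a p53-induced subunit of ribonucleotide reductase, was 1.83 higher (adjusted p = 0.0745) and Cd82, a tetraspanin, 1.50 higher (0.147). Among regulators the deacetylase gene Sirt1 differed by -3.10 (adjusted p = 0.0567) and Ppp1r13b, which encodes the p53 partner ASPP1, by -5.21 (0.0636). Mdm4, the partner of Mdm2, differed by -1.57 (adjusted p = 0.11), and Btg4, a relative of Btg2, by 1.17 (0.138). The caspase inhibitor gene Xiap differed by -2.37 (adjusted p = 0.074) and Casp9, the caspase of the apoptosome, by -1.86 (0.076). Sirt1, Mdm4 and Btg4 were not above background in either group: they exceeded it on 0, 0 and 1 Smn knockdown arrays and on 1, 2 and 0 empty vector arrays. Rrm2b was above it in Smn knockdown alone, Ppp1r13b, Xiap and Casp9 in empty vector alone, and Cd82 in both.

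Markers of several other cells and states differed in Smn knockdown on the same somatodendritic arrays that showed the Cdkn1a and Mdm2 increases. Against empty vector 28.0% of all genes passed the test (2267 higher and 2821 lower). Interferon-induced genes rose in 10 of 10 against empty vector: their mean level was 9.96 to 10.37 in Smn knockdown, 5.30 to 5.44 in empty vector and 5.87 to 5.98 in wild-type. Microglial and macrophage markers rose in 13 of 14, with mean levels of 8.20 to 8.56, 6.02 to 6.34 and 7.84 to 7.93 in the same groups, and 11 to 13, 5 to 6 and 10 to 11 of them above background. Of 19 cell cycle genes 13 fell and 1, E2f1, rose, at means of 7.24 to 7.54, 8.11 to 8.37 and 8.24 to 8.54. E2f1 was named after its value was seen. Astrocyte markers fell in 6 of 9, and oligodendrocyte lineage markers in 4 of 6 (Olig1, Olig2, Pdgfra and Sox10). Of 7 fibroblast markers Acta2 alone fell, 14.3% of them. Of 12 motoneuron markers Ret and Foxp1 fell and Isl2 rose below background, 25.0% of them, near the 28.0% of all genes. Gapdh, whose 3′ end outshines its 5′ end more as RNA shortens, had a 3′ signal above the 5′ one by 3.99 to 4.12 in Smn knockdown, 3.53 to 3.68 in empty vector and 3.11 to 3.61 in wild-type. The part of these markers and of RNA quality in the members' differences was not tested.

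Profiles most like each member were sought over the 9 somatodendritic arrays, as the smallest root mean square difference after each profile was set to mean 0. For Cdkn1a these were Madd (0.0536) and Nop53 (0.0603), at 10.25 and 7.94 in Smn knockdown, 9.60 and 7.31 in empty vector, and 9.40 and 7.14 in wild-type. For Mdm2 they were Plekha6 and Zc3h13, for Ccng1 Epb41l5 and Ythdc1, and for Trp53inp1 Tmem171 and Peg10. Bbc3 was nearest to Prg3 and Ttc34, Perp to Twistnb and Lmbrd1, Gadd45a to Ptpn18 and Tulp1, and Btg2 to Pkd2l1 and Eral1. No member was among the neighbours of another, but only the 2 nearest genes were kept for each, so this says little about likeness between members. Bbc3 and Gadd45a were below background on these arrays, so their likenesses rest on readings near the floor. Some neighbours of other members were as dim, with group means within or below the background levels. In Smn knockdown, empty vector and wild-type these means were 3.69, 3.69 and 3.79 for Peg10, and 6.36, 6.09 and 5.78 for Plekha6. Pkd2l1 was at 5.87 in Smn knockdown. The smallest difference for Btg2 was 0.2024, beside a root mean square of 0.4217 for its own profile, so that likeness was loose.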

How the data were processed

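Biotin-labelled antisense RNA was hybridised to Affymetrix mouse genome arrays, per the labels' protocols. The authors deposited log2 expression values for 45101 probe sets; no source used here names the normalization software. Sorted values agreed within each compartment (largest gap 0.0048 somatodendritic, 0.0125 axonal) and not between them, so each compartment was fitted alone. Probe sets of 1 gene (34958) were named through the platform annotation and RefSeq gene IDs, and the brightest of each gene was kept. Groups were compared with limma 3.58.1 (R 4.3.3; lmFit, eBayes, 9 arrays), with Benjamini-Hochberg adjustment over 18192 genes at 0.05, and SE are those of limma. A fold is given only where both groups were above background. The pipeline was tested on simulated data. All 8 members were named. Of each of the 4 other p53 pathway lists, the 4 genes of lowest p in somatodendritic Smn knockdown against empty vector were named. The 2 of lowest p in the axonal comparison were named too. For markers of cell types and states, counts are given, and some genes are named outside this rule. Members and lists were chosen with earlier results of these data known, so they are no independent evidence. With 3 arrays a group, the number of arrays limits the precision.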

Additional observations from a re-analysis of the deposited data

How the results depend on the processing

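No difference of a member that had passed the test turned round in direction under any setting tried, and the Cdkn1a calls were lost in 1 fit to all 18 arrays alone. That fit left 0 of the 8 members past the threshold against empty vector and against wild-type on somatodendritic arrays (4 and 3 in the fit by compartment), and 103, 144 and 7 genes of 5088, 6550 and 364 in Smn knockdown against empty vector, against wild-type, and empty vector against wild-type; pooling the wider axonal spread is part of its construction. The same fit gave 3763, 4483 and 53 axonal genes, beside 32, 18 and 0. For axonal Smn knockdown against empty vector the count was 17 with a trended, robust prior, 67 after a filter on dim probe sets, 12 with the mean of probe sets, 76 after joint quantile normalization, and 10 without axonal empty vector replicate 2 and Smn knockdown replicate 1 or 0 without axonal Smn knockdown replicates 1 and 3 (both settings chosen after seeing the data). Against wild-type it was 31 after joint normalization, 3 without empty vector replicate 2 and Smn knockdown replicate 1, and 0 without Smn knockdown replicates 1 and 3; the interaction gave 3024 genes, beside 1230, without empty vector replicate 2 and Smn knockdown replicate 1. The cause of these shifts was not tested. A replicate block gave 0 and 0 axonal genes against each control and 164 in somatodendritic empty vector against wild-type. Of 30 correlations between same-numbered samples 1 was over 0.1, with a range of -0.193 to 0.227. Such correlations cannot show whether same-numbered samples shared a culture, and the labels do not say. The numbers were treated as names. Leaving out each array in turn gave 1 to 190, 0 to 717 and 0 to 0 axonal genes, 3719 to 5315, 5200 to 6816 and 200 to 1408 somatodendritic ones, 386 to 2643 in the interaction, and 1 to 4, 2 to 4 and 0 to 1 members called against empty vector, against wild-type and in the interaction. Signal over background limits Bbc3 and Gadd45a in both compartments and Mdm2, Perp and Btg2 in axons.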
